A study of Homo sapiens with 18 samples.

Results

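Gene expression after 2 siRNAs against the same target, siRagC1 and siRagC2, was compared in MDA-MB-231, an established line of human breast cancer cells that lack hormone receptors and HER2 (triple-negative). The comparison rests on replicates 1 to 5 of each siRNA, 10 of the 18 RNA-seq libraries of the series. Cells were collected 72 h after lipofection with Lullaby in OPTI-MEM, and 500 ng of RNA entered each library. The series also holds a control siRNA (siCtrl) with 6 libraries, handled in the same way, and replicate 6 of each siRNA. The replicates were selected on the measured difference between the siRNAs: replicate 6 was set aside because in it the siRagC1 and siRagC2 libraries differed in the reverse direction from the other same-numbered pairs. Values from replicates 1 to 5 are therefore a description, and the test of a difference between the siRNAs is the fit with all 6 replicates of each. Library codes fell into series D1103 (replicates 1 and 2 of each group) and D1221 (replicates 3 to 6), and series was a term in the fits. The labels call the replicates BioRep but do not say whether they came from separate cultures. The p-values therefore measure only the spread between these samples.

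RagC, encoded by RRAGC, is a small GTPase that, in a dimer with RagA or RagB, brings the kinase complex mTORC1 to the lysosome when amino acids are plentiful. An siRNA is a short RNA duplex of which one strand is loaded into an Argonaute protein and directs cleavage of the matching mRNA. The same strand can lower other mRNAs through short matches, mostly in the 3'UTR, to a few bases near its 5' end called the seed. For this reason studies use more than one siRNA against a target, and genes that differ between the siRNAs are of interest beside those that both change.

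The least deep of the 10 libraries held 14.8 M counts and the deepest 71.6 M, and the median was 34 M for siRagC1 and 27.6 M for siRagC2. Mitochondrial genes took 2.55% to 6.19% of counts. All 8 mesenchymal genes that mark MDA-MB-231 had group means above 1 CPM (counts scaled to library size with TMM factors); SPARC was the nearest, at 0.932 to 1.31 CPM with siRagC1 and 0.47 to 2.28 CPM with siRagC2. Of 13 luminal epithelial markers, 7 were also above 1 CPM with each siRNA. KRT8 was the highest, at 508 to 665 CPM with siRagC1 and 524 to 661 CPM with siRagC2. The estrogen receptor gene ESR1 reached at most 0.126 CPM with siRagC1 and 0.0916 CPM with siRagC2. Of 5 leukocyte and endothelial markers 4 were matched to the table (PECAM1 was not), and their group means were below 1 CPM. Differences within same-numbered pairs, siRagC1 minus siRagC2, were positively correlated with each other over replicates 1 to 5 (Pearson r from 0.247 to 0.573 across 11013 genes, which are not independent replicates). The difference in pair 6 was negatively correlated with each of them (r from -0.461 to -0.0422). Whether the libraries labelled siRagC1 replicate 6 and siRagC2 replicate 6 carry each other's label was not tested.

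The target was lowered by both siRNAs, and over all 6 replicates no difference in its level between them passed the test. RRAGC (ENSG00000116954) stood at 67.9, 60.9, 62.2, 62.0, 60.6 and 61.1 CPM in siCtrl replicates 1 to 6. With siRagC1 it stood at 18.8, 12.3, 31.7, 25.4 and 23.3 CPM in replicates 1 to 5, and with siRagC2 at 19.3, 21.6, 40.8, 30.4 and 32.6 CPM. Every siRagC1 library was below its same-numbered siRagC2 library, but the groups overlapped, and replicates 1 and 2 were the lowest 2 of each group. The library labelled siRagC1 replicate 6 had 31.9 CPM and the library labelled siRagC2 replicate 6 had 21.8 CPM, the opposite order. Over all 6 replicates the difference in mean log2(CPM + 1) was -0.22 (two-sided exact permutation within series, p = 0.229, 420 arrangements, smallest possible p 0.00476), and without replicate 6 it was -0.37 (exact permutation p = 0.05). In edgeR the log2 fold change over all 6 replicates was -0.24 ± 0.155 (SE, adjusted p = 0.691). In the edgeR fit of replicates 1 to 5 it was -0.38 ± 0.13 (adjusted p = 0.188). For these replicates the adjusted p was 0.0504 with the replicate block in edgeR, 0.108 in limma-voom and 0.0334 in DESeq2. They were kept by the direction of the contrast between the siRNAs, so the p-values without replicate 6 are a description.

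**Figure D1:**
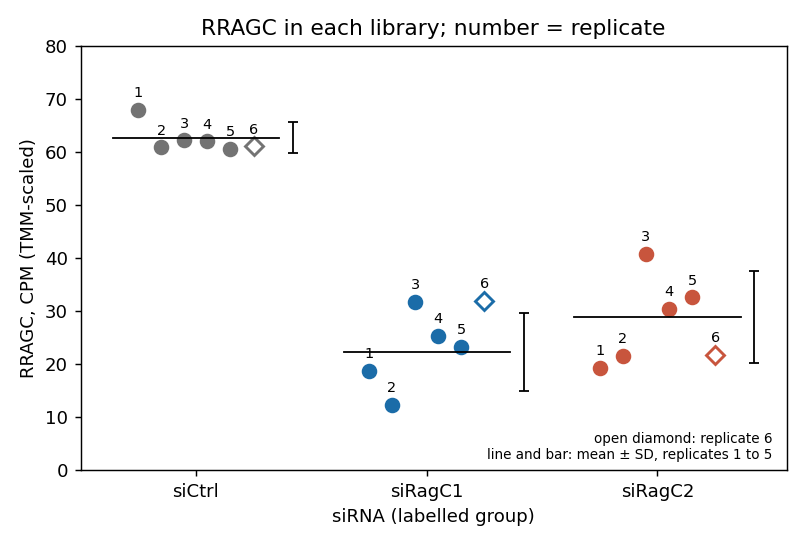
RRAGC in each library, in CPM with TMM scaling, by labelled group; the number above each point is the replicate, open diamonds mark replicate 6, and the line and bar give the mean ± SD of replicates 1 to 5. All 12 siRNA libraries lie between 12.3 and 40.8 CPM, below the lowest siCtrl library at 60.6 CPM, and the siRagC1 and siRagC2 points overlap.

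The other Rag GTPases did not pass the test between the siRNAs. RRAGA, a partner of RagC, stood at 79.4 ± 3.75 CPM with siRagC1 and 80.1 ± 4.71 CPM with siRagC2 (SD, n = 5). RRAGB, the alternative partner, had a log2 difference of 0.01 ± 0.06 (SE). RRAGD, the closest paralog of RRAGC, was at 6.43, 7.27, 7.72, 8.62 and 6.59 CPM with siRagC1 and at 5.18, 6.76, 5.98, 6.87 and 6.45 CPM with siRagC2. It was higher with siRagC1 in all 5 pairs, but the groups overlapped and the log2 difference of 0.23 ± 0.10 missed the threshold in edgeR (adjusted p = 0.257).

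With every replicate kept, edgeR called no gene between the siRNAs at a Benjamini-Hochberg adjusted p under 0.05 (0 of 15382 tested). An unadjusted p under 0.05 was reached by 1316. limma-voom also called 0 genes, and DESeq2 called 10 higher and 16 lower with siRagC1. Over replicates 1 to 5, edgeR called 344 of 15397 genes (2.23%), of which 189 were higher with siRagC1 (1.23%) and 155 lower (1.01%). With the replicate number as a block, 1254 were called (8.14%), 631 higher (4.1%) and 623 lower (4.05%). Leaving out any one of replicates 1 to 5 from the fit of 6 gave 0 calls, so the calls appeared only when replicate 6 was the one left out. Between D1103 and D1221 the difference between the siRNAs was tested directly over all 6 replicates and edgeR called 0 genes (700 had an unadjusted p under 0.05), as did limma-voom.

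**Figure D2:**
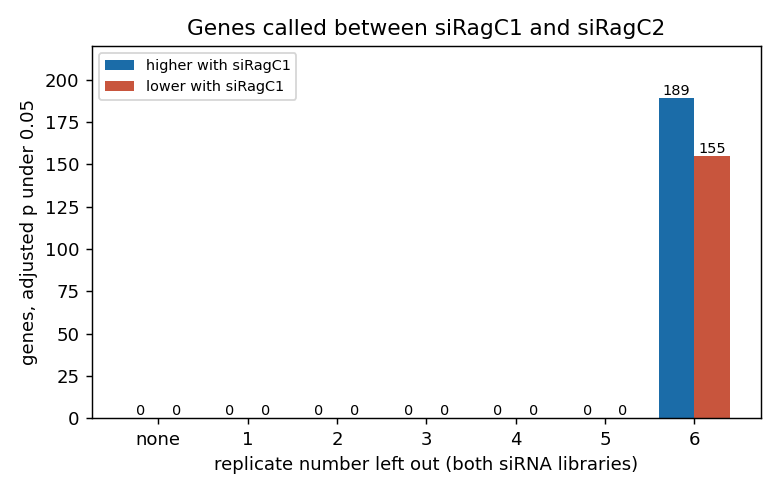
Genes called between siRagC1 and siRagC2 by edgeR (adjusted p under 0.05) when no replicate number or 1 replicate number is left out of the fit of 6; blue bars are genes higher and red bars genes lower with siRagC1. The counts are 0 except without replicate 6, where they are 189 and 155.

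Most of these differences were small. The median absolute log2 fold change of the 344 genes was 0.27, and 4 of them, 1 higher and 3 lower, passed 2-fold. The calls leaned on D1103: with replicates 1 and 2 alone there were 297, and with replicates 3 to 5 alone 3, which were the histone genes H2BC5, H1-2 and H2BC12 (chosen after their values were seen). Without replicate 1 the count was 69 and without replicate 2 it was 61. Without the term for series it was 9, and with a minimum fold of 1.2 it was also 9. The genes nearest the threshold were REEP6, TRIB1 and TGFBR3 just inside (adjusted p from 0.0489 to 0.0497) and SMPDL3B, ISM1 and EIF2S1 just outside (0.0504 to 0.0505).

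Among the 189 genes higher with siRagC1, CPD, which encodes carboxypeptidase D, a peptide-trimming enzyme of the secretory pathway, had the largest difference of those with a mean of at least 5 CPM. It stood at 418, 465, 475, 623 and 435 CPM with siRagC1 and at 221, 277, 360, 351 and 314 CPM with siRagC2. The groups did not overlap, and siCtrl at 284 to 406 CPM lay below these 5 siRagC1 libraries and overlapped siRagC2. The libraries labelled replicate 6 had 346 CPM (siRagC1) and 415 CPM (siRagC2). The log2 difference over replicates 1 to 5 was 0.68 ± 0.11 (SE). In pair 6 it was -0.26, and over all 6 it was 0.53 ± 0.15 (edgeR, adjusted p = 0.415).

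CCNA1, which encodes cyclin A1, a cell cycle regulator best known from germ cells, was among the 12 largest differences with little spread within each siRNA. Its values were 34.2, 32.7, 28.3, 32.4 and 34.1 CPM with siRagC1 and 21.9, 21.2, 20.7, 22.5 and 22 CPM with siRagC2. siCtrl held 20 to 23.6 CPM, which overlaps siRagC2. The library labelled siRagC1 replicate 6 had 22.5 CPM and the library labelled siRagC2 replicate 6 had 35.6 CPM, each inside or near the range of the other siRNA. The log2 difference was 0.58 ± 0.06 over replicates 1 to 5 and 0.37 ± 0.15 over all 6 (edgeR, adjusted p = 0.523). Against siCtrl over all 18 libraries, CCNA1 rose with siRagC1 by 0.50 ± 0.12 (edgeR, adjusted p = 0.0332) and had 0.13 ± 0.12 with siRagC2 (adjusted p = 0.627).

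ATP6V0D2, a subunit of the proton pump that acidifies lysosomes, was above control with both siRNAs and further with siRagC1. It stood at 11, 10.7, 4.27, 6.35 and 4.38 CPM with siRagC1, at 5.37, 5.68, 3.5, 4.49 and 3.96 CPM with siRagC2, and at 1.71 to 4.14 CPM with siCtrl. The siRNA groups overlapped, and the D1103 libraries of siRagC1 were the highest. The log2 difference was 0.64 ± 0.14 over replicates 1 to 5 and 0.50 ± 0.15 over all 6 (edgeR, adjusted p = 0.414). Against siCtrl it rose with each siRNA, by 1.36 ± 0.16 (edgeR, adjusted p = 0.000129) and 0.87 ± 0.16 (adjusted p = 0.00631).

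Other genes stood below control with siRagC2 rather than above it with siRagC1. SESN1, a stress-induced inhibitor of mTORC1 signalling, stood at 5.77 to 7.16 CPM with siRagC1 and 5.57 to 8.03 CPM with siCtrl, against 3.49, 3.83, 5.61, 5.27 and 4.57 CPM with siRagC2. Over the 18 libraries SESN1 fell with siRagC2 by 0.51 ± 0.13 (edgeR, adjusted p = 0.0259) and had -0.11 ± 0.12 with siRagC1 (adjusted p = 0.690). SOWAHC, an ankyrin repeat protein, fell with siRagC2 by 0.64 ± 0.12 (edgeR, adjusted p = 0.00626) and had -0.21 ± 0.11 with siRagC1. IGF2BP3, an RNA-binding protein of fetal tissue and tumours, stood at 78.8 to 94.3 CPM with siRagC1, at 69.8 to 89.6 CPM with siCtrl and at 53.7, 61.2, 69.8, 62.3 and 61.1 CPM with siRagC2. IGF2BP3 fell with siRagC2 by 0.32 ± 0.09 (edgeR, adjusted p = 0.0410).

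HAS2, a hyaluronan synthase, was at 43.7 to 50.2 CPM with siRagC1 and 26.0 to 39.6 CPM with siRagC2, while siCtrl held 42 to 51.7 CPM. FZD8, a Wnt receptor, had a log2 difference of 0.50 ± 0.07, and LRP3, of the LDL receptor family, 0.54 ± 0.12. VIPR1, a receptor for vasoactive intestinal peptide, had 0.49 ± 0.11, with pair values from 0.26 to 0.98. The interferon-induced genes OASL and IFI44 had 0.50 ± 0.07 and 0.49 ± 0.09. All 12 of the largest higher genes were negative in pair 6 (-0.66 in CCNA1 to -0.17 in SESN1).

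Among the genes lower with siRagC1 that had a mean of at least 5 CPM, COL1A1, the main chain of fibrillar type I collagen, differed most. It stood at 32.6, 36.1, 30.8, 22.5 and 27.7 CPM with siRagC1 and at 72.8, 60.9, 40.5, 62.6 and 50.5 CPM with siRagC2. The groups did not overlap, and siCtrl at 22.9 to 37.4 CPM covered the range of siRagC1 but for its lowest library. The log2 difference was -0.92 ± 0.13 over replicates 1 to 5, and -0.72 ± 0.22 over all 6 (edgeR, adjusted p = 0.442). Against siCtrl, COL1A1 rose with siRagC2 by 0.75 ± 0.20 (edgeR, adjusted p = 0.0440) and had 0.02 ± 0.20 with siRagC1. Of 3 fibroblast markers, COL1A1 alone had a group mean above 1 CPM (COL1A2 and DCN did not), and the summed level of the 3 was 23.1 to 37.2 CPM with siRagC1, 41 to 73.5 CPM with siRagC2 and 25.4 to 38.4 CPM with siCtrl in replicates 1 to 5. In bulk RNA, fewer cells of a type and less RNA per cell cannot be told apart.

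Histone genes made up 4 of the 12 largest lower genes. H1-2, a linker histone, stood at 13.4, 14, 13.1, 12.4 and 12.9 CPM with siRagC1 and at 29.1, 23.6, 18.7, 20.7 and 21.5 CPM with siRagC2. H2BC12, a core histone of the H2B type, stood at 51.4, 49.6, 49.3, 47.3 and 54.1 CPM against 88.9, 79.8, 69.0, 74.8 and 77.8 CPM. Neither gene's groups overlapped. The library labelled siRagC1 replicate 6 had 17.7 and 69.3 CPM of H1-2 and H2BC12, and the library labelled siRagC2 replicate 6 had 10.1 and 51.4 CPM. The log2 differences were -0.77 ± 0.08 for H1-2, -0.74 ± 0.07 for H2BC5, -0.70 ± 0.08 for H2AC6 and -0.63 ± 0.06 for H2BC12. Over all 6 replicates they ran from -0.57 ± 0.14 (H2BC5) to -0.45 ± 0.13 (H2BC12), with adjusted p from 0.385 to 0.469 in edgeR. Against siCtrl, H2BC5 and H2AC6 rose with siRagC2 by 0.54 ± 0.12 and 0.47 ± 0.13 (edgeR, adjusted p = 0.0179 and 0.0440). Histone genes exist in near-identical copies, so the share of reads given to each is uncertain.

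The other genes among the 12 had varied functions. TGFBI, a matrix protein induced by TGF-beta, stood at 120 to 147 CPM with siRagC1 and at 183, 176, 170, 231 and 182 CPM with siRagC2, and rose against siCtrl with siRagC2 by 0.54 ± 0.11 (edgeR, adjusted p = 0.0152). HTRA3, a secreted serine protease, rose with siRagC2 by 0.63 ± 0.11 (adjusted p = 0.00354 in edgeR) and had 0.24 ± 0.11 with siRagC1. CMKLR1, the chemerin receptor, rose with siRagC2 by 0.43 ± 0.12 (edgeR, adjusted p = 0.0482). ARTN, a neurotrophic ligand of the GDNF family, stood at 8.46 to 12.1 CPM with siRagC1, below the 12.7 to 14.8 CPM of siRagC2 and, but for the siCtrl replicate 6 value of 10.7 CPM, below siCtrl. FLG, which encodes filaggrin, and SAA1, an acute-phase protein, had log2 differences of -0.83 ± 0.13 and -0.54 ± 0.10. RPSAP52, a pseudogene that can share reads with its parent, had -0.54 ± 0.09. All 12 of the largest lower genes were positive in pair 6, from 0.09 (ARTN) to 0.81 (H1-2).

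**Figure D3:**
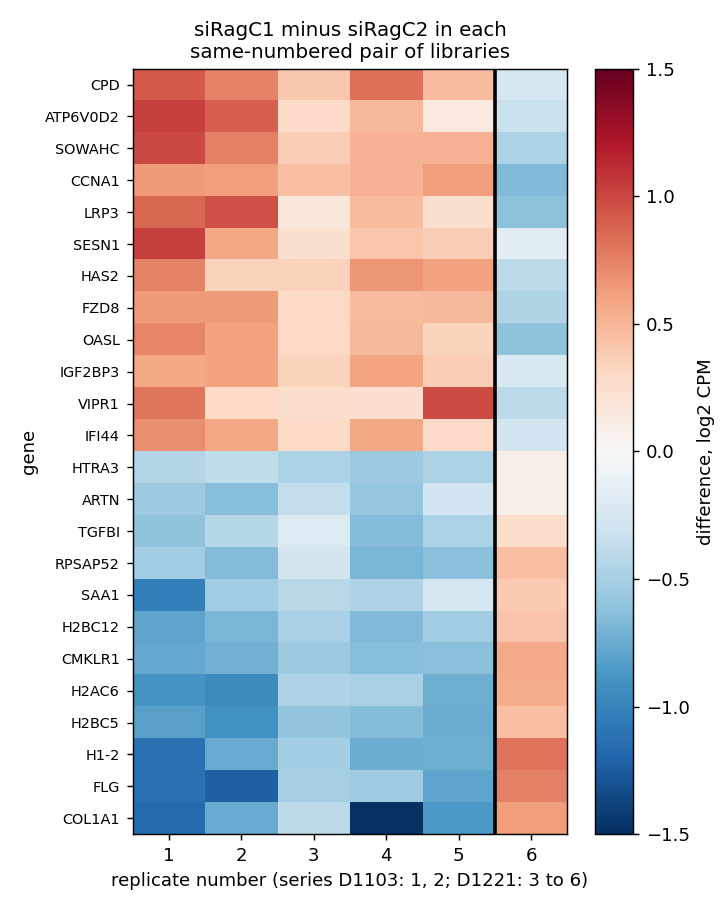
Difference in log2 CPM, siRagC1 minus siRagC2, in each same-numbered pair (columns) for the 12 largest higher and 12 largest lower genes of replicates 1 to 5 (rows); red is higher and blue lower with siRagC1, and the black line sets off pair 6. The genes were chosen for 1 sign in pairs 1 to 5; in pair 6 CCNA1 stands at -0.66 and H1-2 at 0.81, and all 24 have the opposite sign.

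Over all called genes the reversal in pair 6 was nearly as general. Of the 189 higher genes, 181 (95.8%) had the opposite sign in pair 6, with a median of -0.20, and of the 155 lower genes 137 (88.4%), with a median of 0.17. The share over all tested genes was 59.9%. Relative to siCtrl in replicates 1 to 5, the higher genes had a median log2 difference of 0.14 with siRagC1 and -0.15 with siRagC2, and the lower genes -0.11 and 0.15. The called genes thus stood on both sides of control. In the 18-library fits, 26 of the 189 higher genes passed the test with siRagC1 and 44 with siRagC2, beside 2.04% and 3.23% of all genes tested there (1.41% and 1.87% higher, 0.627% and 1.36% lower). Of the 155 lower genes, 7 passed with siRagC1 and 31 with siRagC2. The comparisons with siCtrl share their control libraries. They also hold the 10 siRNA libraries in which the genes were called, which favours shares above those of all genes. These counts, and the tests of single called genes against siCtrl, are therefore a description.

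A minority of called genes kept their sign in all 6 pairs, 8 of the 189 higher (4.23%) and 18 of the 155 lower (11.6%). Of all 3245 tested genes with 1 sign in pairs 1 to 5, 927 (28.6%) kept it in pair 6. MAP1LC3A, an autophagosome protein of the LC3 family, stood at 9.95, 10.7, 8.82, 7.32 and 8.06 CPM with siRagC1 and at 14.8, 14.4, 11.7, 10.5 and 10.1 CPM with siRagC2. The libraries labelled replicate 6 had 8.11 and 8.67 CPM. Over all 6 replicates its log2 difference was -0.41 ± 0.08 (edgeR, unadjusted p = 4.2e-05, adjusted p = 0.342; DESeq2, adjusted p = 0.00433). Against siCtrl it rose with siRagC2 by 0.54 (edgeR, adjusted p = 0.00336) and had 0.13 with siRagC1 (adjusted p = 0.491).

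KLF2, a zinc finger transcription factor, was 24.2, 24.2, 18.7, 17.5 and 17.9 CPM with siRagC1 and 27.9, 27.1, 21.7, 22.2 and 22.8 CPM with siRagC2, and its difference in pair 6 of -0.26 lay within the range of the others (-0.16 to -0.35). CITED2, a transcriptional coregulator, likewise had -0.19 in pair 6 and -0.08 to -0.33 in the others. CDKN1B, an inhibitor of cyclin-dependent kinases, had only -0.01 in pair 6, beside -0.07 to -0.36 in the others. CDKN1B rose against siCtrl with siRagC2 by 0.30 (edgeR, adjusted p = 0.00185) and had 0.10 with siRagC1 (adjusted p = 0.271). Of the 26 genes that DESeq2 called over all 6 replicates, 13 had 1 sign in all 6 pairs and all 26 were among the 344.

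The gene lists held 892 symbols in 28 lists, of which 838 were tested and 47 distinct members called, against 2.23% of all genes. With the replicate block 159 members were called, against 8.14% of all genes. Over all 6 replicates edgeR called 0 members and DESeq2 called 6: MAP1LC3A, CITED2, KLF2, JUND, H2BC5 and H2BC21. Over all genes the median log2 difference was 0.002 and 50.8% were positive.

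The list of replication-dependent histones, a class that packages new DNA in S phase, had the lowest median of the 28 lists. Whether these transcripts were made in S phase was not tested. Of 24 symbols 17 were matched and 11 tested, and 7 were lower and 0 higher with siRagC1, with and without the replicate block. The median was -0.62 over replicates 1 to 5, between -0.79 and -0.49 in the 5 pairs, 0.43 in pair 6 and -0.45 over all 6 replicates. Relative to siCtrl in replicates 1 to 5 the median was -0.13 with siRagC1 and 0.41 with siRagC2. Genes of replication and S phase had a median of -0.02, and mitosis genes a median of -0.06 with 6 of 39 positive. edgeR called 0 of 40 and 0 of 39 of them without the block, and 3 and 4 lower with it, among them TYMS, a thymidylate synthase (-0.15, adjusted p = 0.0118), and CDC25B, a mitotic phosphatase (-0.13, adjusted p = 0.0283).

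Genes of the interferon and double-stranded RNA response, which cells can switch on against foreign RNA, were higher with siRagC1 in 6 of 46 tested members and lower in 0. They were OASL, IFI44, DDX60, IFIT3, OAS3 and IFIH1, with log2 differences from 0.30 to 0.50. DDX60, a helicase of the antiviral response, stood at 84.7, 94.5, 82.7, 84.3 and 78.1 CPM with siRagC1 and at 48.5, 71.0, 66.6, 61.3 and 56.6 CPM with siRagC2, and siCtrl at 67.9 to 81.2 CPM overlapped both. IFIT3 and OASL were highest in the D1103 libraries of every group. In the list 37 of 46 members were positive, and its median was 0.08 over replicates 1 to 5, -0.14 in pair 6 and 0.06 over all 6 replicates. With the replicate block 10 members were higher and 1 lower.

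Cytosolic ribosomal proteins were positive in 51 of 52 members with a median of 0.08; edgeR called 0, and 10 higher with the replicate block. Their pair medians ran from 0.0005 to 0.15 and were -0.04 in pair 6. Lysosomal enzymes and membrane proteins, the genes of the organelle where RagC acts, had 1 of 52 higher (TPP1, a lysosomal peptidase, 0.25 ± 0.04) and 0 lower, a share near that of all genes. With the replicate block 5 were higher and 3 lower. Their median was 0.02, beside 0.19 and 0.18 relative to siCtrl with siRagC1 and siRagC2. Of 39 inputs to mTORC1, SESN1 was higher, and of the 3 tested MiT/TFE factors, which drive lysosomal genes, MITF was lower (-0.24 ± 0.06).

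The list of FOXO targets and insulin feedback genes had calls in both directions. FOXO are transcription factors that insulin signalling restrains. Of 20 tested, 4 were higher (FOXO3, TRIB1, GRB10 and IRS1) and 2 lower (CITED2 and CDKN1B). Apoptosis genes had 2 higher (BCL2L2 and MCL1, which protect cells) and 2 lower (BIRC2, an inhibitor of apoptosis, and BCL2L11, which promotes it) of 26. Autophagy genes had SQSTM1, a cargo receptor, higher and MAP1LC3A lower of 35. Matrix proteins had 4 lower of 38 (COL1A1, TGFBI, CCN1 and THBS1) and 0 higher. Targets of TGF-beta and YAP had 3 lower of 28 (TGFB2, CCN1 and BMP4) with a median of -0.08. NRF2 targets had 3 higher of 22 (FTH1 and FTL, the ferritin chains that store iron, and TALDO1). ATF4 targets, sterol synthesis genes, the unfolded protein response and nucleolar ribosome biogenesis had 0 called by edgeR. With the replicate block, ATF4 targets had 11 higher and 2 lower of 36, immediate early genes 9 and 4 of 30, matrix proteins 4 and 7 of 38, TGF-beta and YAP targets 0 and 6, apoptosis genes 3 and 5, autophagy genes 3 and 3 and NRF2 targets 4 and 2.

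**Figure D4:**
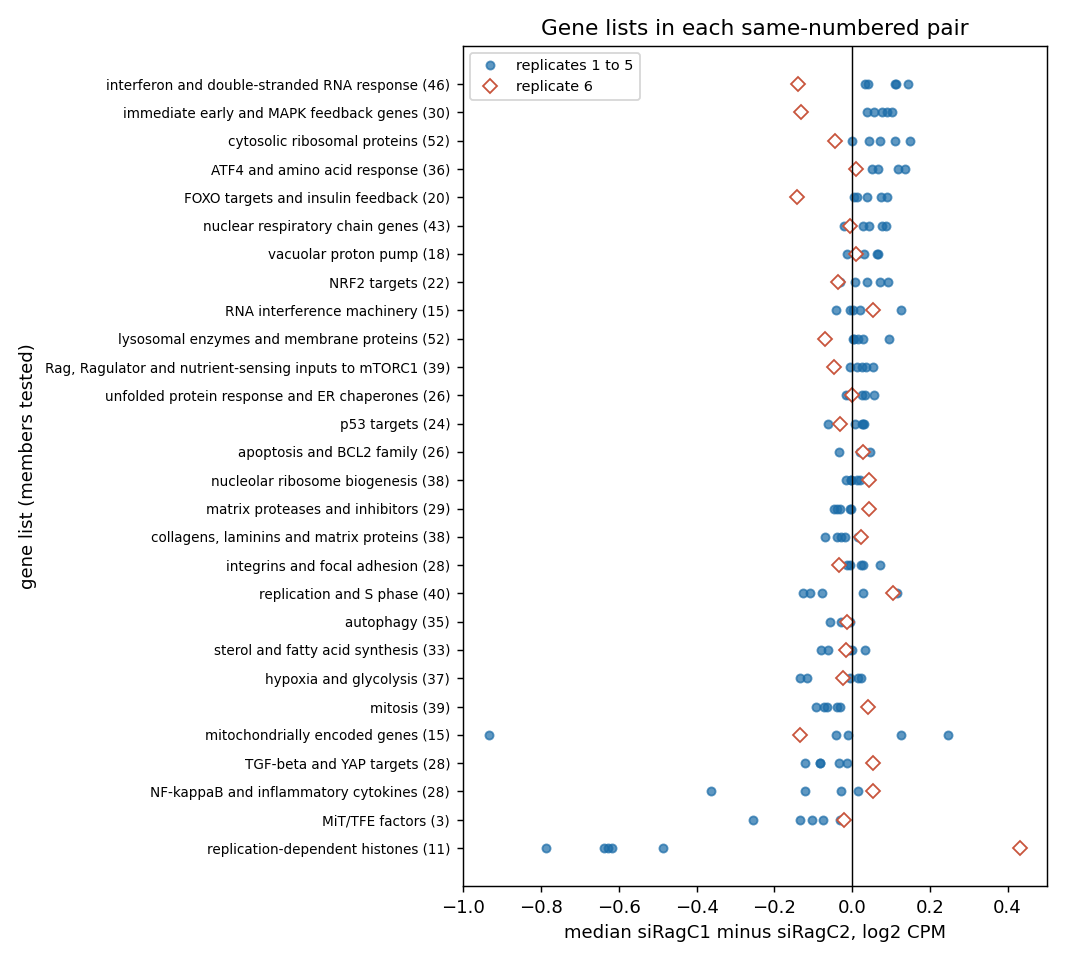
Median difference of each gene list's tested members, siRagC1 minus siRagC2 in log2 CPM, in pairs 1 to 5 (filled circles) and pair 6 (open diamonds); rows are lists in order of their median over replicates 1 to 5. The replication-dependent histones lie at -0.79 to -0.49 in all 5 pairs with pair 6 at 0.43, while the mitochondrially encoded genes run from -0.93 (pair 4) to 0.25 (pair 3).

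Sequence was examined next, since the called genes could share letters in their 3'UTRs. For 10457 genes with a mean of at least 5 CPM and an annotated 3'UTR (GENCODE 29, GRCh38, longest per gene, sense strand), every 7-letter word present in at least 50 genes was ranked by the difference of genes with it, after adjustment for 3'UTR length and GC content. There were 16168 such words. The scan was chosen after the data were seen, and the word was taken from pairs 1 and 2 alone. The word with the largest difference was ATGGGAC, held by 912 genes and lacking in 9545. The next, TGGGACA, overlaps it. In each of pairs 3, 4 and 5, whose values were not used to choose the word, ATGGGAC was again first. It led the 16168 words on the side higher with siRagC1. In pair 6 it was the second from the other end. Pair 6 was set aside, and pairs 3 to 5 kept, by the direction of this same difference. The ranks in pairs 3 to 5 are therefore a description and no separate test of the word.

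The sites in the 3'UTRs of 8 called genes are shown because they hold the longest form of the word, ATGGGACA, in the genes with the largest differences among those whose sequence was used here. Capitals mark the 8 letters, and each is read 5' to 3' on the mRNA.
CPD: cagcagagATGGGACAgccactt
IGF2BP3: tcagaccaATGGGACAgtcatag
TOB2: attttggaATGGGACAttggtgt
BTRC: ctccaatgATGGGACAggcctaa
DNAL1: gattctgtATGGGACAaaagttt
FRS2: tattaaaaATGGGACAggggcct
FECH: gtgatacaATGGGACAtgtgaag
SRPX2: gcggagtgATGGGACAtaaatca

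On GRCh38 the first 7 letters lie at chr17:30465037-30465043 (CPD, plus strand), chr7:23311241-23311247 (IGF2BP3, minus), chr22:41433609-41433615 (TOB2, minus), chr10:101557080-101557086 (BTRC, plus), chr14:73696032-73696038 (DNAL1, plus), chr12:69578049-69578055 (FRS2, plus), chr18:57549737-57549743 (FECH, minus) and chrX:100672818-100672824 (SRPX2, plus). Outside the capitals the windows differ. The genes differ in function too: TOB2 is an antiproliferative adaptor, BTRC a substrate receptor of a ubiquitin ligase, DNAL1 an axonemal dynein light chain, FRS2 an adaptor of FGF receptors and FECH the last enzyme of heme synthesis.

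Relative to siCtrl in replicates 1 to 5, these genes stood below control with siRagC2 and near or above it with siRagC1. TOB2 had a log2 difference of -0.48 with siRagC2 and 0.01 with siRagC1, BTRC -0.45 and 0.02, and DNAL1 -0.40 and 0.05. FRS2 had -0.49 and -0.07, and FECH -0.40 and 0.01. CPD had -0.20 and 0.48, and SRPX2 -0.14 and 0.26, so their difference lay more on the siRagC1 side. In the 18-library fit FRS2 fell with siRagC2 by 0.47 (edgeR, adjusted p = 0.00186) and had -0.15 with siRagC1 (adjusted p = 0.292). TOB2, BTRC, DNAL1 and FECH fell with siRagC2 as well (edgeR, adjusted p from 0.0226 to 0.0488).

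Calls followed how much of the word a 3'UTR held. Genes with ATGGGACA were called higher with siRagC1 in 35 of 404 cases (8.66%), those with ATGGGAC and another last letter in 30 of 681 (4.41%), those with TGGGACA but not ATGGGAC in 26 of 1185 (2.19%), those with TGGGAC in other settings in 25 of 2168 (1.15%) and those with none of these in 65 of 8130 (0.8%). Calls of the other direction were 2, 9, 5, 30 and 104. With the replicate block the shares called higher were 18.1%, 9.84%, 6.58%, 4.47% and 3.53% in the same order. Of the 181 higher genes with a known 3'UTR, 65 (35.9%) held ATGGGAC, beside 11 of 150 lower genes (7.33%) and 1085 of all 12568 tested genes (8.63%). Among the 12 largest higher genes, CPD and IGF2BP3 held ATGGGACA and SOWAHC and SESN1 held ATGGGAC. The reverse was seen as well: CMKLR1, lower with siRagC1, holds ATGGGAC. These calls come from the contrast that chose the replicates, and are given as a description. The shares were not adjusted for 3'UTR length, which fell in the same order. Over the 10457 genes scanned its median was 3299, 3008, 2691, 2318 and 1006 bases, from ATGGGACA to none.

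The average size of the shift was small. Genes with ATGGGAC exceeded those without by 0.0708, 0.0578, 0.0280, 0.0874 and 0.0313 on the log2 scale in pairs 1 to 5 (mean 0.0551 ± 0.0255, SD, n = 5 pairs), and by -0.00501 in pair 6. Adjusted for 3'UTR length and GC content the values were 0.0763, 0.0640, 0.0173, 0.0567, 0.0291 and -0.0260. All 5 pairs were positive and pair 6 was negative, before and after adjustment.

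The shift appeared on the siRagC2 side when each library was set against the siCtrl libraries of its series. Adjusted as above, genes with ATGGGACA (335 of the 10457) differed from genes with no match by -0.0957, -0.0721, -0.0178, -0.0560 and -0.0402 in siRagC2 replicates 1 to 5. In siRagC1 replicates 1 to 5 they differed by 0.00402, 0.0120, 0.00710, 0.0134 and 0.00155, and in the 6 siCtrl libraries by -0.00433 to 0.00820. The siRagC2 libraries of replicates 1 to 5 thus lay below all siCtrl libraries and all siRagC1 libraries of those replicates, with replicate 3 the nearest. The library labelled siRagC2 replicate 6 had -0.00756, and the library labelled siRagC1 replicate 6 had -0.0395, inside the range of siRagC2 replicates 1 to 5. Each siCtrl library was part of its own reference, which narrows the spread of the siCtrl values. Before adjustment the siCtrl libraries ran from -0.0260 to 0.0413 and siRagC2 replicates 1 to 5 from -0.0702 to -0.0370. The word and these replicates were both chosen on siRagC1 minus siRagC2, so the separation of siRagC2 is a description.

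The adjustment matters for replicate 6. Before it, genes with ATGGGACA stood at -0.0370 in the library labelled siRagC1 replicate 6 and at -0.0363 in the library labelled siRagC2 replicate 6, and the siRagC1 values of replicates 1 to 5 ran from -0.0255 to 0.0520. Genes with longer matches also had longer 3'UTRs, with a median of 3299 bases for ATGGGACA and 1006 bases for no match, and a median GC content of 40.5% and 40.7%. Among the 16168 words, ATGGGAC was the first from the lower end for siRagC2 minus siCtrl in replicates 1 and 2 and again in replicates 3 to 5. It ranked 6776 from that end for the library labelled siRagC2 replicate 6 against its siCtrl. For siRagC1 minus siCtrl it ranked 767 from the top in replicates 1 and 2 and 449 from the top in replicates 3 to 5. For the library labelled siRagC1 replicate 6 it was the first from the lower end. The word was chosen on siRagC1 minus siRagC2 in replicates 1 and 2. Replicates 3 to 5 were kept by the direction of that contrast, so these ranks are a description and no separate test.

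**Figure D5:**
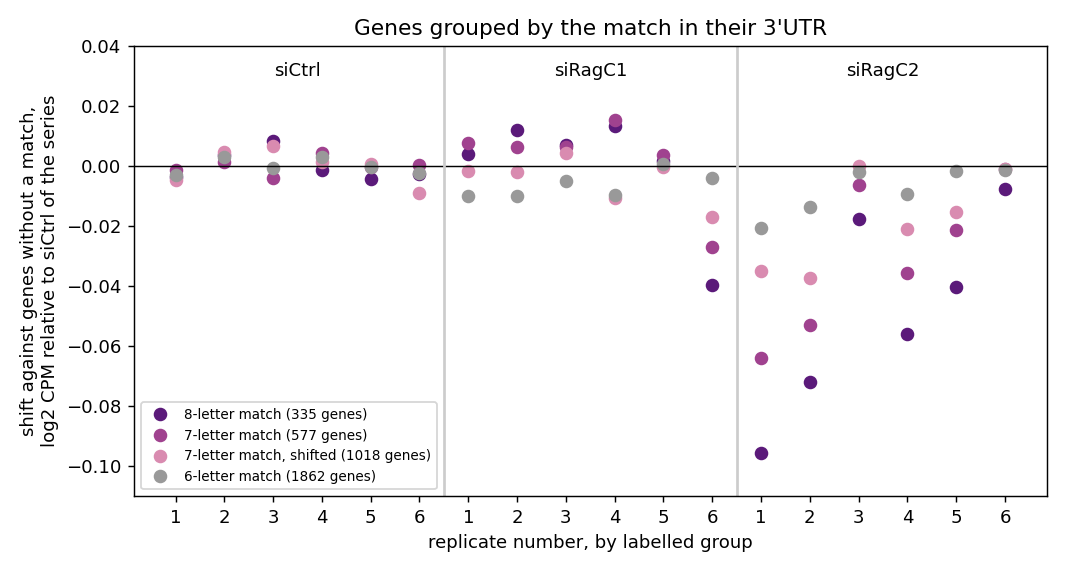
Shift of genes with a match in their 3'UTR against genes with none, in log2 CPM relative to the siCtrl libraries of the same series and adjusted for 3'UTR length and GC content, in each of the 18 libraries by labelled group; colours give the match, from 8 letters (335 genes) to 6 letters (1862 genes). In siRagC2 replicates 1 to 5 the 8-letter class lies between -0.0957 and -0.0178 and the shorter matches nearer 0, and of the siRagC1 libraries the one labelled replicate 6 stands apart at -0.0395.

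Shorter matches gave smaller shifts. In siRagC2 replicates 1 to 5 the mean adjusted shift was -0.0564 ± 0.0298 (SD, n = 5) for ATGGGACA, -0.0360 ± 0.0233 for ATGGGAC, -0.0217 ± 0.0153 for TGGGACA and -0.00943 ± 0.0081 for TGGGAC. In siRagC1 replicates 1 to 5 the same classes had means from -0.00683 to 0.00782. The first words from the lower end for siRagC1 minus siCtrl in replicates 1 and 2 and in replicates 3 to 5 were different ones, CGGGAGT and GCACGCC.

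RRAGC itself holds ATGGGAC, not in its 3'UTR but once in the coding part of exon 1, at bases 376 to 382 of its transcript. RRAGD holds it once as well, in coding sequence, while the protein-coding transcripts of RRAGA and RRAGB hold it 0 times. The windows are shown to compare the target with its paralog, with the 7 letters in capitals.
RRAGC: aggattctgctcATGGGACtccggcgc
RRAGD: gagccacccctaATGGGACccctagag

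The RRAGC letters lie at chr1:38859442-38859448 and the RRAGD letters at chr6:89368075-89368081 (GRCh38). The word is not rare in coding regions: 322 of 4436 genes (7.26%) with a coding region within 20% of the 1197 bases of RRAGC hold it. The siRNA sequences were not used here, so whether ATGGGAC is complementary to a part of either was not tested. A match of letters is a description of the transcript and does not show that an siRNA acted there.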

How the data were processed

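The authors deposited 1 table of raw counts per gene for all 18 libraries (57820 gene rows, 51996 with a symbol). The build was GRCh37/hg19 and the tools were STAR 2.7.6a and cutadapt 0.6.2, per the submitters' processing notes; the counter, the strand and the annotation: not given in the sources used here. Groups and replicate numbers came from the labels. Counts were fitted in R 4.3.3 with edgeR 4.0.16 (TMM, filterByExpr, robust quasi-likelihood F test) with code series as a term, and p was adjusted by Benjamini-Hochberg over all genes tested. The contrasts were siRagC1 against siRagC2 over replicates 1 to 5 and over all 6, and each siRNA against siCtrl over 18 libraries. Alternatives were RLE factors, other filters, DESeq2 1.42.0, limma-voom (limma 3.58.1), the replicate block, no series term, each series alone, siCtrl in the fit, other thresholds and each replicate left out. Chosen after seeing the data were single libraries left out and the word scan. The procedure was tested on simulated data.

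Same-numbered siRagC1 and siRagC2 libraries deviated together (r from 0.461 to 0.752 over replicates 1 to 5 and from 0.382 to 0.766 over 6). In replicates 1 to 5 each siRagC1 library correlated best with the siRagC2 library of its own number. The siRagC1 library of replicate 6 did not: its own pair had the lowest r, 0.382. The numbers were taken to pair the samples on the evidence of the data, which is weaker for replicate 6. The labels do not state the pairing. Summed over genes, counts of replicates differed by 2.88 to 81.6 times the counting variance, so no library duplicated another, and precision was limited by the spread between libraries more than by depth.

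Named genes were RRAGA, RRAGB, RRAGC and RRAGD; per direction the 12 largest differences called over replicates 1 to 5 with a mean of at least 5 CPM and 1 sign in 5 pairs; up to 3 members of each list by unadjusted p; and genes called over all 6, of which edgeR gave 0. Other list members and genes named for keeping 1 sign or for their 3'UTR sites were chosen after their values were seen. The members and lists were chosen with earlier results of these data known. Pair values are differences of log2 CPM with a prior count of 2.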

Additional observations from a re-analysis of the deposited data

Results flagged for a closer look

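In 58 groups of 6 libraries tested over named genes and word classes, 5 held 1 library far from the other 5. For groups not chosen on their values the rule flags about 1 in 20, a rate that does not apply here. Most of these genes were chosen for a consistent difference in replicates 1 to 5, and replicate 6 was set aside for reversing that contrast. All 5 were replicate 6 libraries. CCNA1 stood at a log2 CPM of 5.16 in the library labelled siRagC2 replicate 6, against 4.38 to 4.5 in the other 5 of its group. In the library labelled siRagC1 replicate 6, LRP3 stood at 2.16 against 2.56 to 2.76, H1-2 at 4.15 against 3.64 to 3.81 and H2BC12 at 6.12 against 5.57 to 5.76. In the same library the adjusted shift of genes with ATGGGACA was -0.0395, against 0.00155 to 0.0134 in the other siRagC1 libraries. Both replicate 6 libraries were set aside on this contrast, so these values are no separate evidence.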

How the results depend on the processing

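For siRagC1 against siRagC2 over replicates 1 to 5 (344 calls), the count was 345 with RLE factors, 327 with a filter of 5 CPM in 5 libraries, 299 with limma-voom and 297 with D1103 alone. It was 796 with no filter, 637 with DESeq2, 1254 with the replicate block, 519 with siCtrl in the fit, 9 with no series term, 3 with D1221 alone, 60 at an adjusted p under 0.01 and 9 at a minimum fold of 1.2. Leaving out a replicate number gave 61 (without 2) to 386 (without 4), and leaving out a single library 76 (siRagC1 replicate 2) to 604 (siRagC1 replicate 4). Over all 6 replicates (0 calls) the count was 306 with no filter, 26 with DESeq2 and 297 with D1103 alone, and leaving out a number gave 0 to 344 (without 6); with the replicate block it was 0, with 1926 genes at an unadjusted p under 0.05. For siRagC1 against siCtrl (312 calls) it was 799 with no filter, 778 with DESeq2, 864 with the replicate block and 34 to 1178 (without 6) when a number was left out. For siRagC2 against siCtrl (495 calls) it was 843, 1005, 986 and 42 (without 1) to 1028 (without 6). The cause of these moves was not tested. The RRAGC difference kept its sign in every alternative run, from -0.37 without replicate 6 to -0.12 without replicate 2, and was -0.22 with the replicate block (exact sign flips, p = 0.281). Of the 24 largest genes, all 24 missed the threshold over all 6 replicates, 1 missed it with the replicate block, and 9, 9, 3, 2 and 4 missed it without replicates 1 to 5 in turn; 0 changed sign. The difference by code series had 0 calls in both alternatives run, limma-voom and replicates 1 to 5 alone.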
